A study of Mus musculus with 98 samples.

Results

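The genes described here are 7 growth factors of lymphoid and myeloid cells that thymic stroma can make: *Kitl* (stem cell factor), *Il7*, *Flt3l*, *Il15*, *Tslp*, *Csf1* (macrophage colony-stimulating factor) and *Il34*. They were listed by name, with no threshold on a measured level. All 7 were present among the 22231 genes of the age series and the 20760 genes of the newborn single-cell data, and 6 of them among the 39179 gene identifiers of the bulk libraries, in which *Flt3l* was not analysed. The series holds 98 mouse samples of 3 experiments, all on thymic stroma.

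In the age series, live Ter119-CD45-EpCAM- cells of wild-type C57BL/6 thymi, that is the nonepithelial thymic stroma (NETS) with thymic epithelial cells (TEC) gated out, were captured as single cells at E12.5 and E13.5 (1 library each, from thymi pooled over litters) and at E16.5, P0 and 4 weeks (2 libraries each). In the newborn experiment, live Ter119-CD45- cells, TEC included, came from P0 mice labelled Tbx1+/- Crkl+/- (3 libraries) and from their wild-type littermates (3 libraries), fixed before capture. The compound heterozygous mice carried 1 *Tbx1* allele replaced by LacZ and 1 null allele of *Crkl* in the germ line, hence in every cell and not in the stroma alone. In the bulk experiment, live CD45- populations of wild-type mice were sorted at P0 and 4 weeks: CD31+ (endothelium), Ly51+gp38- (mural cells), gp38+CD26+ (capsular fibroblasts), gp38+CD26- (mostly medullary fibroblasts, with CapFb1 cells of the capsule among them by the study's account), cortical TEC (cTEC) and medullary TEC (mTEC), with mTEChi and mTEClo at 4 weeks alone, 6 libraries per population and age. By the study's methods the E16.5, P0 and 4-week cells of the age series came from a pair of thymi per age, and the newborn cells from 3 mice per genotype. No label ties a library to an animal, and none does so in the bulk experiment, so p-values measure the spread between libraries, part of which may be technical. Adult thymi, by the study's methods, were first depleted of CD45+ cells on magnetic beads, a step given for adults alone. All bulk libraries of P0 carry lower library numbers than those of 4 weeks. Steps between these ages therefore cannot be told apart from differences in handling.

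T cell progenitors enter the thymus without the signals to survive there by themselves, and the stroma supplies them. *Kitl* and *Flt3l* encode ligands of the receptor tyrosine kinases Kit and Flt3 and sustain early progenitors. Interleukin 7 keeps double-negative thymocytes alive through Il7r and the common gamma chain Il2rg, thymic stromal lymphopoietin (*Tslp*) signals through Il7r and Crlf2, and interleukin 15, presented in trans on Il15ra to cells with Il2rb and Il2rg, sustains natural killer, NKT and intraepithelial T cell lineages. *Csf1* and *Il34* encode the alternative ligands of Csf1r and sustain macrophages.

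The reference promoter table held 3 of the 7 genes (*Kitl*, *Flt3l*, *Csf1*). The 250 bases before the start of *Csf1* and *Flt3l* are shown because *Csf1* had the smallest and *Flt3l* the largest measured rise of the 7 factors in NETS from P0 to 4 weeks. Both are on the minus strand of GRCm38.p6 and written 5′ to 3′ from RefSeq, with matches to the GC box GGGCGG (either strand) in capitals.
Csf1, chr3:107760470-107760719: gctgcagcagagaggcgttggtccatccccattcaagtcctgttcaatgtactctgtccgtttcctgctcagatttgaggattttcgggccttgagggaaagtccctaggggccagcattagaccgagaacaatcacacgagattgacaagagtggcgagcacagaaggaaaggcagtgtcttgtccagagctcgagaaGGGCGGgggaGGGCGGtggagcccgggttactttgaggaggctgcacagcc
Flt3l, chr7:45136433-45136682: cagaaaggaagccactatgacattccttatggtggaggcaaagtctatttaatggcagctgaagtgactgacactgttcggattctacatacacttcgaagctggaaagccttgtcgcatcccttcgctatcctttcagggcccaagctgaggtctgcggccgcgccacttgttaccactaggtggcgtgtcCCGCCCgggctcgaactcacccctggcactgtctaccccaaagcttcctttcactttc
The *Csf1* window held 2 GC boxes, 51 and 41 bases before the start, and no E-box (CANNTG). The *Flt3l* window held 1 GC box on the other strand, 58 bases before the start, and 2 E-boxes. Of 32851 promoter windows of this length, 32.7% held the GC box and 66.2% an E-box, both strands searched. Neither window held the AP-1 letters TGANTCA (6.75% of windows) or the CRE letters TGACGTCA (1.55%). A match is a match of letters alone.

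In GRCm38, *Kitl* lies on chromosome 10 (100015630 to 100100416, plus strand), *Il7* on chromosome 3 (7569994 to 7613760, minus), *Flt3l* on chromosome 7 (45129788 to 45136432, minus), *Il15* on chromosome 8 (82331632 to 82403222, minus), *Tslp* on chromosome 18 (32815383 to 32819797, plus), *Csf1* on chromosome 3 (107741048 to 107760469, minus) and *Il34* on chromosome 8 (110741829 to 110805924, minus). These are spans of whole protein-coding genes in GENCODE M21. *Il7* overlaps the antisense gene *Gm16685*, *Il34* overlaps the antisense genes *Gm15894* and *Gm15895*, and *Tslp* overlaps a lincRNA on the other strand. *Flt3l* overlaps *Gm45713* on its own strand. Reads at such overlaps could be divided between entries. In the bulk counts *Flt3l* had no entry of its own, whereas *Gm45713* was present and was not used in its place. The strand setting of the bulk counts is not given in the sources used here.

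Single-cell libraries of the age series held 28583048 to 93040640 UMIs over 36208 cells, those of the newborn data 4978011 to 31418527 UMIs over 21451 cells, and 0.430% and 0.206% of the distinct barcodes, respectively, occurred in more than 1 library. The other bulk libraries held 5785352 to 15852166 gene counts, but the second gp38+CD26+ library at 4 weeks held 25702 and was left out, so that n = 5 there. Sort markers followed the bulk labels: *Pecam1* averaged 1727 CPM (counts per 1000000 gene counts) in CD31+ cells at P0, *Dpp4* (CD26) 304 CPM in gp38+CD26+ cells, *Rgs5* 29821 CPM in Ly51+gp38- cells and *Epcam* 247 and 495 CPM in cTEC and mTEC, against at most 12.2 CPM in any library of the 4 NETS sorts. In cTEC at 4 weeks the leukocyte gene *Ptprc* reached 153 ± 56.0 CPM (SD, n = 6), against 1.76 CPM in cTEC at P0. The 3′ tags did not check the newborn genotype: *Crkl* lay at 25.6 to 29.3 CPM in NETS of the 3 libraries labelled Tbx1+/- Crkl+/- and at 19.0 to 29.1 CPM in WT, and *Tbx1* had at most 16 UMIs in the NETS or the TEC of any library. Fewer cells of a type and less RNA per cell cannot be told apart in bulk libraries.

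Whether the level of each factor was higher in TEC or in NETS was asked first of the bulk libraries. There cTEC and mTEC, weighted equally, were set against the 4 NETS populations, also weighted equally. On these averages *Il7* and *Il15* were higher in TEC at P0, and *Kitl*, *Tslp*, *Csf1* and *Il34* were higher in NETS. At P0 the TEC − NETS difference in *Il7* was 6.07 ± 0.57 (log2 fold change ± SE, adjusted p = 8.64e-15) and that in *Il15* 1.49 ± 0.34 (adjusted p = 0.000185). In the other direction, *Kitl* differed by -1.39 ± 0.19 (adjusted p = 1.85e-09), *Tslp* by -2.50 ± 0.76 (adjusted p = 0.00532), *Csf1* by -1.79 ± 0.18 (adjusted p = 1.21e-13) and *Il34* by -2.98 ± 0.46 (adjusted p = 1.04e-07). Thus 6 of 6 factors passed at P0, where 39.7% of 20417 genes did (24.9% higher and 14.7% lower in TEC). The median over the factors was -1.59, against 0.37 over all genes. Under other scalings that median of all genes lay at 0.42 and 0.48, so each difference is to be read relative to it. The signs of the 6 differences remained under each scaling, and *Tslp* was not called among the libraries with the title prefix TXCK (-1.56), nor *Il15* among those with the prefix DFCK (1.31).

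At 4 weeks the same directions were measured for all 6 factors and 5 passed, where 42.7% of genes did (29.8% higher, 12.9% lower). *Il7* remained higher in TEC (4.50 ± 0.55, adjusted p = 1.59e-10). *Kitl* (-1.57 ± 0.19, adjusted p = 8.18e-11), *Tslp* (-2.40 ± 0.75, adjusted p = 0.00627), *Csf1* (-1.86 ± 0.18, adjusted p = 5.11e-14) and *Il34* (-2.81 ± 0.45, adjusted p = 2.87e-07) were lower. The *Il15* difference of 0.72 ± 0.35 did not pass (adjusted p = 0.0889), although it did with DESeq2 (0.76) and with scaling by library totals alone (0.90). *Tslp* at 4 weeks was not called among the DFCK libraries (-2.18). The median of all genes was 0.48 here (0.51 and 0.64 under other scalings), and that of the factors -1.71. In no factor did the TEC − NETS difference itself change between ages beyond the threshold: 0 of 6 passed in edgeR and 0 with DESeq2, 1 had an unadjusted p under 0.05 (*Il7*, -1.57 ± 0.77, adjusted p = 0.299), and 6.49% of all genes passed. Among the TXCK libraries alone the *Il7* change was -3.97 (adjusted p = 0.0220).

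**Figure D1:**
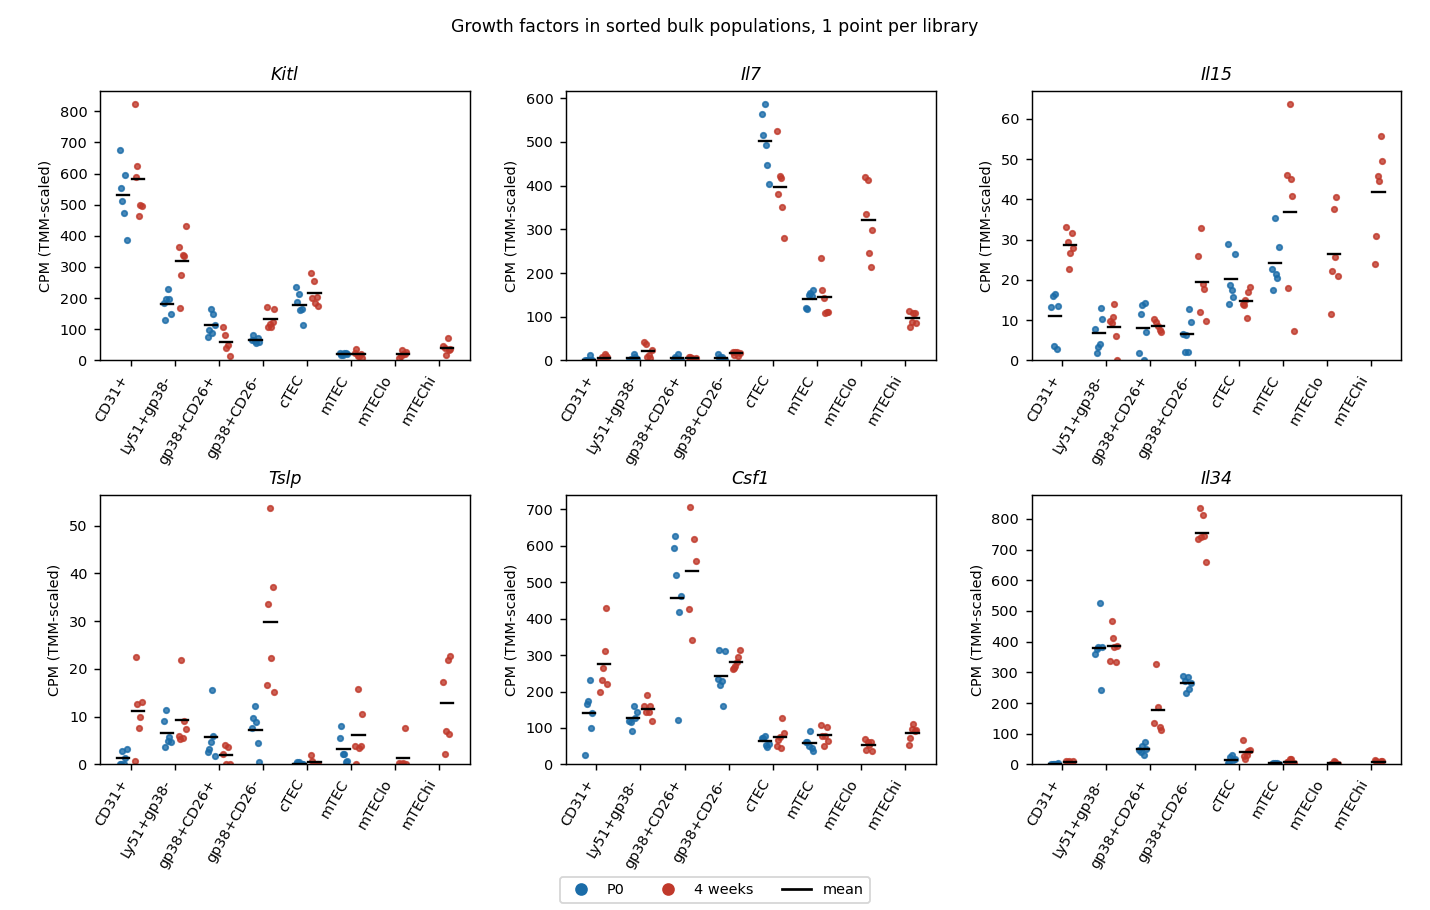
Levels of the 6 factors in the bulk libraries, in CPM after TMM scaling (y axes) by sorted population (x axis), with 1 point per library, P0 in blue, 4 weeks in red and a bar at the mean. *Il7* stood in cTEC and mTEC, *Kitl* was highest in CD31+ cells but higher in cTEC than in mTEC, *Csf1* was highest in gp38+CD26+ cells, and *Il34* was highest in Ly51+gp38- cells at P0 and in gp38+CD26- cells at 4 weeks.

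Sorted populations of the same age were then compared with each other. The share of all genes that passed was 22.1% for CD31+ against Ly51+gp38- cells at P0 and 26.3% at 4 weeks, 4.2% for gp38+CD26+ against gp38+CD26- cells at P0 and 6.03% at 4 weeks, 44% for gp38+CD26+ cells against mTEC at P0, 32.1% for cTEC against mTEC at P0 and 32.2% at 4 weeks, 35% for cTEC against mTEChi and 19% for mTEChi against mTEClo. Over the orders of the populations by level within each age, 18 of 72 comparisons of neighbours passed among the factors, of which 5 concerned *Kitl*, 2 *Il7*, 6 *Csf1* and 5 *Il34*, and none *Il15* or *Tslp*. Neighbours were set by each factor's own levels and are thus the closest pairs. No share of all genes matches this count, and it cannot be read against the shares above.

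*Il7*, the survival factor of early thymocytes, had the largest TEC − NETS difference of the factors. In cTEC it lay between 405 and 587 CPM at P0 (median 504, mean 502 ± 68.9 SD, n = 6) and between 279 and 525 CPM at 4 weeks (median 399). In mTEC it lay between 118 and 160 CPM at P0 (median 148.3) and between 109 and 233 CPM at 4 weeks (median 126.6). The cTEC libraries did not overlap the mTEC libraries at either age, yet the difference did not pass with the spread shared over all 14 population-age groups (P0: 1.83 ± 0.90, adjusted p = 0.115; 4 weeks: 1.45 ± 0.89, adjusted p = 0.217). Within the medulla at 4 weeks, mTEClo lay between 214 and 420 CPM (median 317) and mTEChi between 75.8 and 114 CPM (median 97.4), without overlap and again short of the threshold (-1.74 ± 0.90 for mTEChi − mTEClo, adjusted p = 0.1802). NETS populations at P0 had means of 1.93 to 5.17 CPM, and the step down from mTEC to gp38+CD26+ cells, the next population in order, was 4.77 (log2, adjusted p = 0.000124).

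At 4 weeks *Il7* averaged 21.5 ± 15.6 CPM in Ly51+gp38- cells (5.01 to 42.6) and 16.504 ± 3.97 CPM in gp38+CD26- cells (11.002 to 19.9). Ly51 is also a marker of cTEC, and the level of *Il7* in the Ly51+gp38- sort was 1.02% of that in cTEC at P0 and 5.43% at 4 weeks. The cTEC genes *Psmb11* (0.418% and 3.87%), *Prss16* (0.263% and 3.27%), *Foxn1* (0.733% and 4.74%) and *Krt8* (0.522% and 3.20%) moved with it, and the part of cTEC in the *Il7* level of this sort was not tested. Counts of *Psmb11* in gp38+CD26- cells at 4 weeks were low (mean 3.81 CPM, against 1191 CPM in cTEC).

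In the age series, whose gate removed EpCAM+ cells, *Il7* was scarce. Over all NETS cells it amounted to 0.917 CPM at E12.5, 1.296 at E13.5, 0.415 and 0.580 at E16.5, 0.992 and 0.681 at P0, and 4.51 and 3.41 at 4 weeks. The libraries at 4 weeks were above all others. The rise from P0 to 4 weeks was 2.21 ± 0.30 (adjusted p = 0.00202), while the change from E12.5 and E13.5 to P0 was -0.21 and did not pass. Medullary fibroblasts (MedFb) carried the highest level at 4 weeks, at 7.08 and 7.76 CPM against 1.31 and 0.946 at P0 (rise of 2.73 ± 0.30, adjusted p = 2.34e-05), and within them the subtype MedFb2a stood at 10.9 ± 0.395 CPM (SD, 2 libraries, 89 UMIs), followed by MedFb1b at 5.39 CPM. Medullary fibroblasts were 24.0% of the cells at 4 weeks and held 55.6% of the *Il7* UMIs. Classes differed in UMIs per cell, so here and below a share of cells is not a share of all UMIs. Capsular fibroblasts (CapFb) also rose (1.46 ± 0.41, adjusted p = 0.0219), a call that was lost with DESeq2 (1.51) and without the first 4-week library (1.15), and vascular smooth muscle (VSM) rose by 3.63 ± 0.95 (adjusted p = 0.0288) from 18 UMIs at 4 weeks, a call lost with DESeq2 and without the second P0 library (3.12) or either E16.5 library.

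*Flt3l*, the ligand of Flt3 on early lymphoid and dendritic cell progenitors, had the largest measured rise after birth. Its NETS level was 0.340 CPM at E12.5, 0.404 at E13.5, 3.78 and 3.72 at E16.5, 5.51 and 6.62 at P0, and 47.9 and 45.6 at 4 weeks. The libraries of E16.5, P0 and 4 weeks did not overlap. Pooled over E12.5 and E13.5 only 39 UMIs were counted, or 0.385 CPM (95% Poisson interval 0.274 to 0.527), against 6.09 CPM (5.67 to 6.53) at P0 and 46.6 CPM (44.98 to 48.2) at 4 weeks; these intervals cover counting error only. The rise from P0 to 4 weeks was 2.91 ± 0.11 (adjusted p = 5.04e-05) over all NETS and 3.69 ± 0.11 (adjusted p = 2.16e-09) in medullary fibroblasts, where the level went from 6.65 and 8.07 CPM to 98.8 and 97.6 CPM. Capsular fibroblasts rose from 4.99 and 5.70 CPM to 30.98 and 30.7 CPM (2.60 ± 0.12, adjusted p = 1.04e-05). At 4 weeks MedFb2a (106.9 ± 8.62 CPM) and MedFb1b (96.1 ± 4.21 CPM) led the subtypes, CapFb4 stood at 12.2 ± 0.122 CPM, and medullary fibroblasts held 61.6% of the UMIs. At P0 the subtype with the highest level was arterial endothelium (EnA) at 17.1 ± 3.63 CPM, from 10 UMIs.

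*Il15* had its highest bulk means in medullary epithelium at both ages. In mTEC it lay between 17.6 and 35.4 CPM at P0 (median 22.1) and between 7.35 and 63.8 CPM at 4 weeks (median 42.99). In mTEChi it lay between 24.1 and 55.8 CPM (median 45.2), above the 10.6 to 18.2 CPM of cTEC of that age (cTEC − mTEChi of -1.499 ± 0.59, adjusted p = 0.0388). In CD31+ cells it went from 2.70 to 16.4 CPM at P0 (median 13.4) to 22.7 to 33.1 CPM at 4 weeks (median 28.7). These libraries did not overlap, but the step of 1.39 ± 0.59 did not pass (adjusted p = 0.121). No neighbours in the order of the populations by *Il15* passed at either age, with the spread shared over all population-age groups. The libraries of neighbours could still be apart: at 4 weeks cTEC (10.6 to 18.2 CPM) did not overlap gp38+CD26+ cells (7.09 to 10.3 CPM).

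Medullary fibroblasts were the class with the highest level in the age series from E16.5 on, whereas arterial endothelium (EnA) led the subtypes at E12.5 (31.2 CPM, from 5 UMIs) and E13.5 (38.6 CPM, from 55 UMIs). Among all NETS cells *Il15* amounted to 5.53 CPM at E12.5, 6.48 at E13.5, 17.3 and 16.54 at E16.5, 14.4 and 18.8 at P0, and 27.5 and 21.9 at 4 weeks. The rise after P0 of 0.53 ± 0.15 (adjusted p = 0.0302) was lost without the first 4-week library (0.43) or either E16.5 library (0.55). In medullary fibroblasts it held with each library of E16.5, P0 and 4 weeks left out in turn, at 26.6 and 29.2 CPM at P0 and 48.98 and 46.8 CPM at 4 weeks (0.75 ± 0.09, adjusted p = 4.20e-05). Capsular fibroblasts measured 11.96 and 14.7 CPM at P0 and 14.7 and 11.1 CPM at 4 weeks, with a difference of 0.0042 ± 0.16 on the log2 scale. At 4 weeks MedFb1b (61.9 ± 8.83 CPM) and MedFb2b (54.4 ± 7.08 CPM) led and their libraries overlapped, whereas MedFb2a, which led for *Il7* and *Flt3l*, stood at 34.1 ± 6.46 CPM.

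*Tslp*, a cytokine of epithelia and fibroblasts that acts on dendritic cells and lymphoid progenitors, was low in all sorted populations. Its highest mean in bulk was in gp38+CD26- cells, with 0.450 to 12.2 CPM at P0 (median 8.25) and 15.2 to 53.7 CPM at 4 weeks (median 27.9). The groups did not overlap, but the step of 2.04 ± 1.12 did not pass (adjusted p = 0.255). In mTEChi it lay between 2.16 and 22.6 CPM (median 12.1), and in mTEClo 5 libraries lay at or under 0.387 CPM and the other at 7.55 CPM. The mTEChi − mTEClo difference was 3.19 ± 1.17 (adjusted p = 0.0452). In cTEC the highest library reached 1.90 CPM, and cTEC were below mTEC at P0 (-4.19 ± 1.25, adjusted p = 0.00726) and at 4 weeks (-3.80 ± 1.21, adjusted p = 0.0124). Although NETS were higher than TEC when averaged, the mean of mTEC at P0 (3.22 CPM) was above that of CD31+ cells (1.25 CPM). At 4 weeks the mean of mTEChi (12.9 CPM) came next after that of gp38+CD26- cells (29.8 CPM).

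Over all NETS cells of the age series *Tslp* amounted to 1.97 CPM at E12.5, 5.38 at E13.5, 10.4 and 9.94 at E16.5, 9.57 and 12.7 at P0, and 23.9 and 23.7 at 4 weeks. The rise after P0 was 1.06 ± 0.14 (adjusted p = 0.00202). The leading subtype changed with age, from VSM at E12.5 (10.8 CPM) and E13.5 (16.1 CPM) to MedFb2b at E16.5 (24.7 CPM) and P0 (26.3 CPM) and MedFb2a at 4 weeks (53.9 ± 7.74 CPM). The libraries of MedFb2b and MedFb2a overlapped at E16.5 and at P0. Capsular fibroblasts rose from P0 to 4 weeks by 1.62 ± 0.13 (adjusted p = 9.94e-05) and medullary fibroblasts by 1.08 ± 0.10 (adjusted p = 7.72e-06), from 21.4 and 23.2 CPM to 44.7 and 51.0 CPM. Pericytes (Pc) moved the other way, from 13.6 and 12.2 CPM to 9.30 and 9.22 CPM. That fall of -0.65 ± 0.23 on the log2 scale (adjusted p = 0.0437) was the only called fall among the factors in single cells between these ages, and it was lost when any of the libraries of E16.5, P0 or 4 weeks was left out and with DESeq2. VSM stayed between 10.8 and 18.4 CPM in all 8 libraries, and the test over all ages did not pass there (adjusted p = 0.420).

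*Kitl* was the factor shared by endothelium, mural cells and cortical epithelium. In bulk CD31+ cells it lay between 387 and 675 CPM at P0 (median 532) and between 464 and 824 CPM at 4 weeks (median 544). Ly51+gp38- cells followed with 128 to 228 CPM at P0 (median 190.6) and 169 to 431 CPM at 4 weeks (median 337), and the difference between the 2 populations passed at P0 (1.56, adjusted p = 1.96e-05) and at 4 weeks (0.87, adjusted p = 0.0170). cTEC lay between 115.1 and 234 CPM at P0 (median 174.9) and were not distinguishable from the mural cells. mTEC lay between 18.0 and 24.9 CPM at P0 (median 22.3), far from cTEC (3.04 ± 0.31, adjusted p = 1.07e-12, where 32.1% of genes differed). At 4 weeks the cTEC − mTEC difference was 3.44 ± 0.31 (adjusted p = 3.20e-14), and mTEChi (15.8 to 72.6 CPM) were above mTEClo (8.99 to 32.998 CPM) by 0.95 ± 0.29 (adjusted p = 0.0144). The TEC − NETS difference in *Kitl* thus averaged over TEC populations that were unlike each other.

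The fibroblast sorts moved in opposite directions in *Kitl* after birth. In gp38+CD26- cells it went from 54.2 to 81.8 CPM at P0 (median 63.7) to 108.1 to 171 CPM at 4 weeks (median 120), without overlap, a rise of 1.01 ± 0.29 (adjusted p = 0.0102; 8.63% of genes rose). This call was lost with scaling by library totals (0.79, adjusted p = 0.0582) and within either prefix (0.89 and 1.10). In gp38+CD26+ cells it went from 74.2 to 164 CPM (median 105) to 12.7 to 106 CPM (median 49.9), with overlap, a fall of -0.98 ± 0.30 on the log2 scale (adjusted p = 0.0259; 3.3% of genes fell). The difference between these steps was -1.99 ± 0.42 (adjusted p = 0.00202, where 3.39% of genes passed). The fall was lost without the fourth (-0.89, adjusted p = 0.0813), the fifth (-0.95, adjusted p = 0.0561) or the sixth (-0.75, adjusted p = 0.107) gp38+CD26+ library of 4 weeks, and with the shallow library kept (-0.70), whereas the difference of the steps held with each of the 5 left out. Within prefixes the fall was -1.76 among TXCK libraries (adjusted p = 0.00162) and -0.30 among DFCK libraries (not called), and the difference of the steps -2.65 (adjusted p = 0.00412) and -1.41 (adjusted p = 0.491). In Ly51+gp38- cells *Kitl* rose by 0.82 ± 0.28 (adjusted p = 0.0459; 6.31% of genes rose), a call lost without the third, the fourth or the fifth gp38+CD26+ library of 4 weeks (adjusted p = 0.0585 to 0.0615), with library totals (0.62), with the library number position as a block (0.84, adjusted p = 0.0567), with no filter (0.81), with the shallow library kept (0.80) and within either prefix. The step in Ly51+gp38- cells also differed from that in gp38+CD26+ cells (1.81 ± 0.42, adjusted p = 0.00425, where 4.1% of genes passed), but not among DFCK libraries (0.80). Capsular fibroblasts of the age series did not share the fall of the gp38+CD26+ sort. Their *Kitl* rose by 0.31 ± 0.09 (adjusted p = 0.0304), a call lost in other settings given below. That class and that sort are not the same set of cells. By the study's account CapFb1 cells also enter the gp38+CD26- sort, and at P0 CapFb1 made up 2297 of the 3880 capsular cells.

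Single cells gave a rise of *Kitl* over all NETS from 64.1 and 70.9 CPM at P0 to 126.4 and 107.6 CPM at 4 weeks (0.76 ± 0.08, adjusted p = 0.000923), after 21.2 CPM at E12.5, 44.8 at E13.5 and 65.8 and 62.8 at E16.5. Endothelium was highest at each age, with 137.5 CPM at E12.5, 192.2 at E13.5, 222 and 191.4 at E16.5, 278 and 291 at P0, and 431 and 427 at 4 weeks. Within it arterial endothelium led from E16.5 on, at 334 ± 35.1, 446 ± 21.2 and 715 ± 22.7 CPM at E16.5, P0 and 4 weeks, and capillary endothelium (EnC) followed at 206, 295 and 456 CPM. The libraries of EnA and EnC did not overlap at these ages. VSM was low at E12.5 (6.65 CPM) and E13.5 (21.2 CPM) and reached 156.5 and 270 CPM at P0 and 339 and 306 CPM at 4 weeks. Pericytes, the other mural cells, were at 22.2 and 18.2 CPM at P0, after a rise of 1.57 ± 0.26 from E12.5 and E13.5 (adjusted p = 0.00033), and rose to 93.8 and 104.2 CPM at 4 weeks (2.12 ± 0.13, adjusted p = 3.38e-07), the largest of the 7 differences in *Kitl* tested between these ages. Endothelium was 15.1% of the cells at 4 weeks and held 33.8% of the *Kitl* UMIs, while at P0, when it was 5.56% of the cells, it held 19.7%, behind capsular fibroblasts with 28.6% and VSM with 26.9%. Capsular fibroblasts were 48.6 and 55.4 CPM at 4 weeks against 42.1 and 46.6 CPM at P0 (0.31 ± 0.09, adjusted p = 0.0304, lost without the second 4-week library at 0.19, without either E16.5 library and with DESeq2), and medullary fibroblasts 75.4 and 69.95 CPM against 40.7 and 33.9 CPM (0.96 ± 0.09, adjusted p = 7.05e-06).

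**Figure D2:**
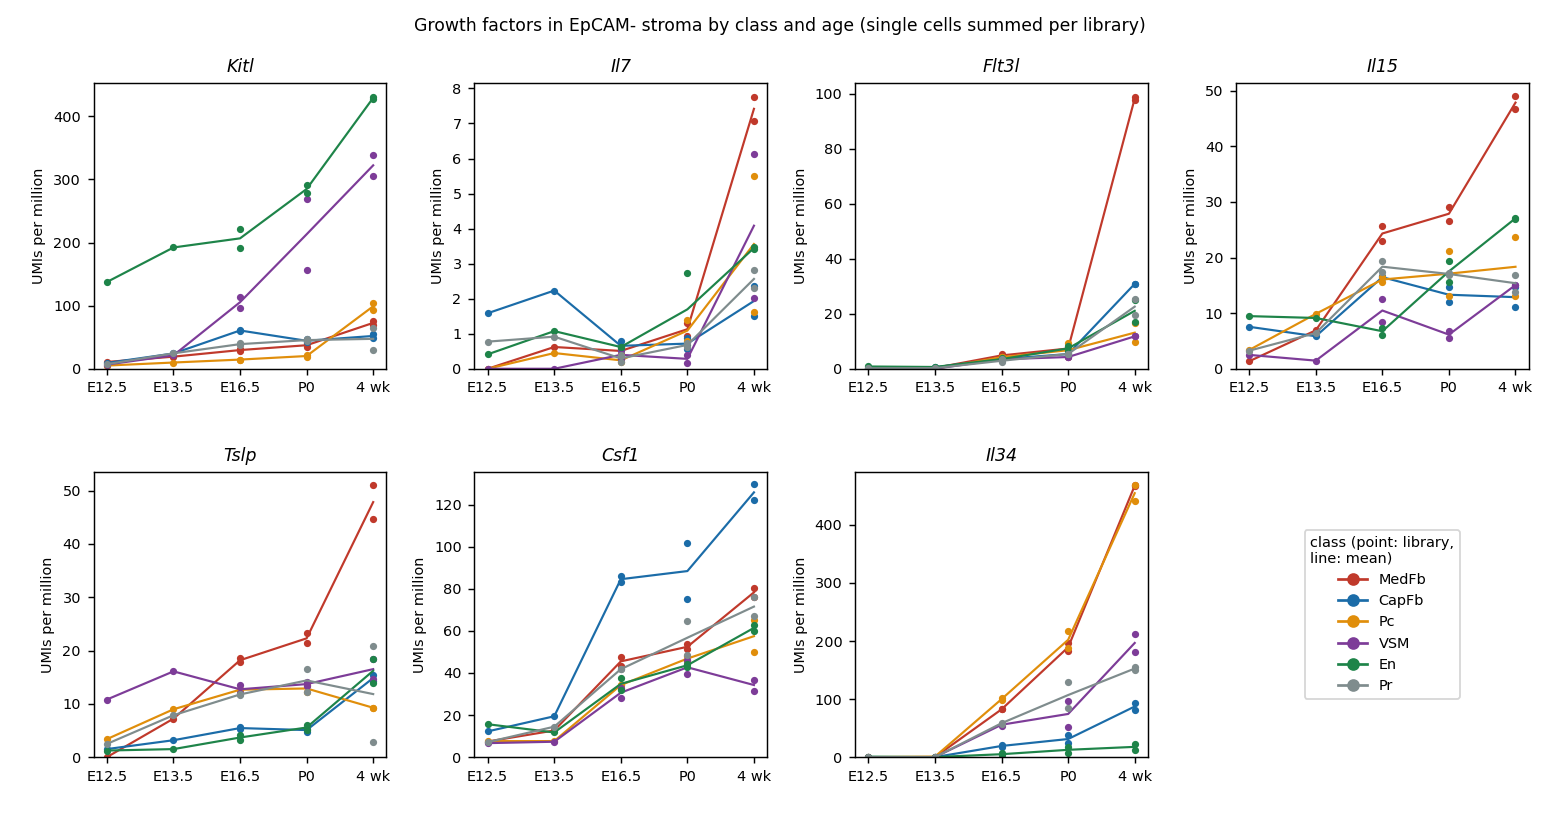
Levels of the 7 factors in the age series, in CPM of UMIs (y axes) by age (x axis), with 1 point per library, a line through the mean of each age and a colour per class of cells. *Kitl* was highest in endothelium at each age, *Csf1* was highest in capsular fibroblasts from E16.5 on, and *Flt3l* and *Il34* reached 98.8 and 468 CPM in medullary fibroblasts at 4 weeks from 0 at E12.5.

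*Csf1*, the macrophage growth factor, was highest in capsular fibroblasts in bulk and, among single NETS cells, from E16.5 on. In bulk gp38+CD26+ cells it lay between 123 and 626 CPM at P0 (median 491) and between 341 and 705 CPM at 4 weeks (median 558, n = 5), above gp38+CD26- cells at P0 (0.91, adjusted p = 0.0391) and at 4 weeks (0.92, adjusted p = 0.0353). In gp38+CD26- cells the means were 244 ± 58.9 CPM at P0 and 281 ± 20.8 CPM at 4 weeks. CD31+ cells rose from 26.9 to 232 CPM at P0 (median 152) to 199 to 430 CPM at 4 weeks (median 249), by 0.98 ± 0.27 (adjusted p = 0.0113; 4.72% of genes rose), with the groups overlapping. This rise was 1.36 (adjusted p = 0.0448) among TXCK and 0.56 (adjusted p = 0.656) among DFCK libraries. TEC means were 53.5 to 86.6 CPM over both ages, below each NETS population.

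Over single NETS cells *Csf1* amounted to 10.4 CPM at E12.5, 14.8 at E13.5, 54.7 and 53.97 at E16.5, 59.4 and 72.2 at P0, and 89.3 and 93.5 at 4 weeks. The rise after P0 of 0.44 ± 0.11 (adjusted p = 0.0168) was the smallest of the 7 factors and was lost without the second 4-week library (0.37). Capsular fibroblasts held 57.9% of the *Csf1* UMIs at P0, as 37.7% of the cells, and 59.1% at 4 weeks, as 32.0% of the cells. Part of such an excess can lie in UMIs per cell, which the CPM levels take into account. Their level was 12.2 CPM at E12.5, 19.4 at E13.5, 85.9 and 83.2 at E16.5, 75.3 and 101.5 at P0, and 129.6 and 122.1 at 4 weeks (rise after P0 of 0.58 ± 0.13, adjusted p = 0.00977, lost without either 4-week library, at 0.55 and 0.61). Within the capsule CapFb1c led at P0 (127.3 ± 8.36 CPM) and at 4 weeks (171 ± 7.58 CPM), while at E16.5 CapFb2b (107.5 CPM) and CapFb1c (105.65 CPM) overlapped. All 7 capsular labels were at or above 106.7 CPM at 4 weeks, among them CapFb4 at 125.4 ± 4.41 CPM and CapFb3 at 108.6 ± 16.4 CPM, whereas VSM stood at 34.3 ± 3.70 CPM.

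*Il34*, the other ligand of Csf1r, belonged to medullary fibroblasts and mural cells and was barely counted before E16.5. The E12.5 library held 5 UMIs of it (0.1698 CPM) and the E13.5 library 7 (0.0976 CPM). Pooled, these 12 UMIs of 101190485 gave 0.119 CPM (95% Poisson interval 0.0613 to 0.207). At E16.5 the level was 49.4 and 48.0 CPM, at P0 69.1 and 110.5 CPM and at 4 weeks 238 and 207 CPM, with pooled levels of 90.9 CPM (89.3 to 92.6) at P0 and 220 CPM (217 to 224) at 4 weeks. The rise from P0 to 4 weeks was 1.27 ± 0.21 (adjusted p = 0.00439). Medullary fibroblasts were at 0 and 0.155 CPM at E12.5 and E13.5, at 82.1 and 82.6 at E16.5, at 182.02 and 196 at P0, and at 467 and 468 at 4 weeks (rise after P0 of 1.28 ± 0.06, adjusted p = 6.94e-08). Pericytes ran close to them, at 0 and 0.898 CPM, 101.54 and 98.3, 187.3 and 217, and 441 and 468 CPM. Capsular fibroblasts went from 24.2 and 38.1 CPM at P0 to 93.7 and 80.7 CPM at 4 weeks (1.55 ± 0.20, adjusted p = 0.000771), and VSM from 51.8 and 96.9 CPM to 181 and 212 CPM (1.34 ± 0.25, adjusted p = 0.00745, lost without the second 4-week library at 1.22).

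MedFb2a was the subtype with the most *Il34* at E16.5 (110.9 CPM), P0 (234 CPM) and 4 weeks (483 ± 10.0 CPM). The other medullary labels were close behind at 4 weeks, with MedFb1b at 472 ± 3.72 CPM and MedFb1a at 430 ± 25.9 CPM. Endothelium stood at 12.4 and 22.9 CPM at that age. In bulk, *Il34* lay between 244 and 526.4 CPM in Ly51+gp38- cells at P0 (median 379), between 232 and 289 CPM in gp38+CD26- cells (median 269) and between 31.5 and 72.0 CPM in gp38+CD26+ cells (median 49.7). At 4 weeks gp38+CD26- cells stood first with 658 to 836 CPM (median 743), above all 6 libraries of that sort at P0, yet the step of 1.51 ± 0.64 did not pass (adjusted p = 0.111). In Ly51+gp38- cells the level at 4 weeks was 334 to 469 CPM (median 385), within the range at P0. *Il34* was higher in cTEC than in mTEC at P0 (2.36 ± 0.68, adjusted p = 0.00552) and at 4 weeks (2.18 ± 0.67, adjusted p = 0.00910), with means of 15.8 and 40.7 CPM in cTEC. Although NETS were higher than TEC when averaged, CD31+ cells at P0 had a mean of 1.79 CPM, below those of cTEC and mTEC (3.08 CPM).

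**Figure D3:**
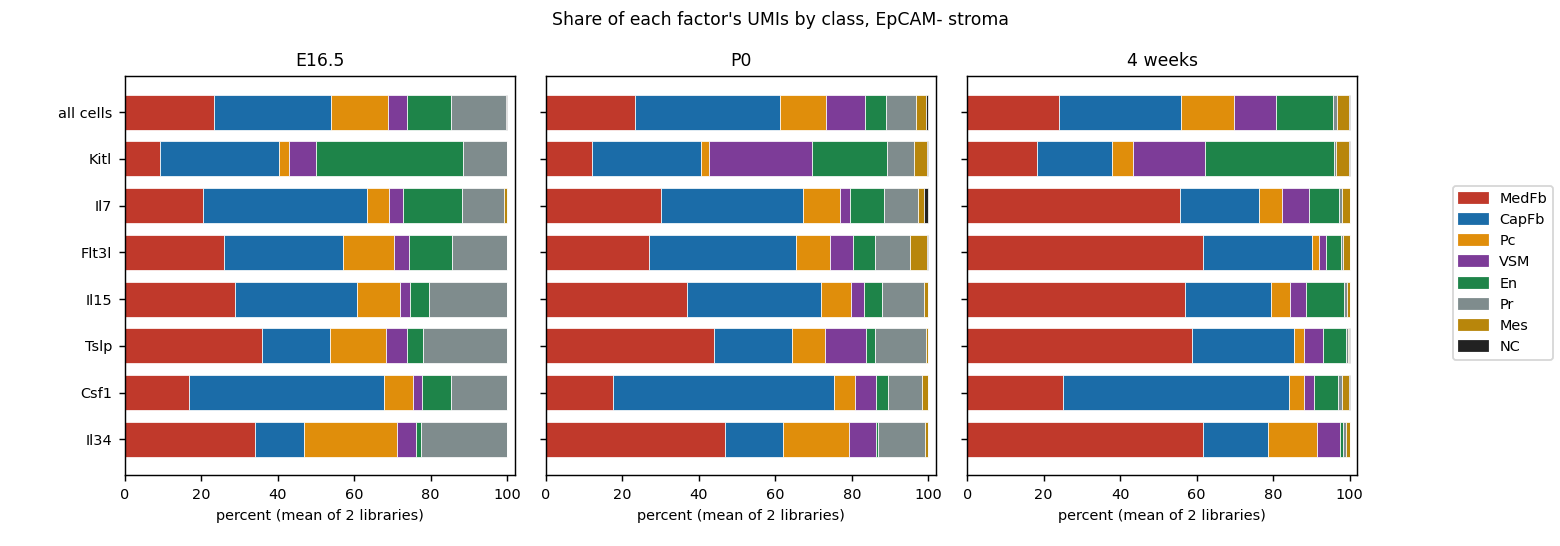
Share of each factor's UMIs, in percent, that came from each class of cells in the age series at E16.5, P0 and 4 weeks (mean of 2 libraries), with the share of all cells as the top bar of each panel. Classes differed in UMIs per cell, so the top bar is not the share of all UMIs. At 4 weeks medullary fibroblasts were 24.0% of the cells and held 55.6% to 61.7% of the UMIs of *Il7*, *Flt3l*, *Il15*, *Tslp* and *Il34*, capsular fibroblasts held 59.1% of *Csf1*, and *Kitl* was divided among endothelium (33.8%), capsular fibroblasts (19.7%), VSM (18.9%) and medullary fibroblasts (18.2%).

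By class, the age series can be put together as follows. Over all NETS cells 7 of 7 factors rose from P0 to 4 weeks, where 22.8% of genes rose and 47.2% changed in either direction. In medullary fibroblasts 7 of 7 rose (26.8% of genes rose) and in capsular fibroblasts 6 of 7 (23.7% of genes rose), *Il15* being the exception. In pericytes *Kitl* and *Il34* rose and *Tslp* fell (15.2% of genes rose). In VSM *Il7*, *Flt3l*, *Il15* and *Il34* rose (10.3% of genes rose), although *Flt3l* (1.39) and *Il15* (1.22) were lost without either 4-week library and with DESeq2. In endothelium *Kitl*, *Flt3l* and *Tslp* rose (11.5% of genes rose), all 3 lost without the first P0 library and *Flt3l* and *Tslp* also without the second 4-week library, and *Tslp* with DESeq2. Among proliferating cells *Flt3l* alone rose (1.92 ± 0.45, adjusted p = 0.0290; 4.67% of genes rose), a call lost without either 4-week or either E16.5 library. That made 30 rises and 1 fall among 49 tests, where 35.3% of all tests passed over these classes and 17% were rises. All NETS hold the cells of the other classes, so these tests are not independent. The mix of cells also changed: proliferating cells were 813 of 10403 NETS cells at P0 and 58 of 5833 at 4 weeks. A step over all NETS thus holds changes of composition beside changes of level. From E12.5 and E13.5 to P0 there were 42 rises and 1 fall, where 28.4% of all tests were rises, and the test over all ages passed in 46 of 49 cases, where 67.9% of all tests passed. The fall, *Il7* in capsular fibroblasts (-1.08, adjusted p = 0.0495), was lost with DESeq2 (-1.12), without the second P0 library (-0.80) and without any 1 library of E16.5 or 4 weeks. E12.5 and E13.5 had 1 library each, assumed in the fit to vary like the other ages. Mesothelium and neural crest had too few cells for a test.

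The bulk sorts gave a smaller count for the same ages: 4 of 36 steps passed (3 rises, 1 fall), where 9.86% of all gene tests over the 6 populations passed and 6.05% were rises. An unadjusted p under 0.05 was found in 13 of the 36. No share of all genes is given at that unadjusted threshold, so the 13 cannot be read against the shares above. In cTEC (10.2% of genes changed) and mTEC (3.91%) no factor passed in edgeR. DESeq2 called 8 of the 36 and scaling by library totals 2. The *Csf1* rise in CD31+ cells and the 3 *Kitl* steps described above made up the 4 calls. Bulk and single cells also differed in some steps. *Kitl* fell in gp38+CD26+ cells and rose in single capsular fibroblasts, which are not the same set of cells. Each of these 2 *Kitl* calls was lost in other settings given above. *Il34* averaged 378 and 387 CPM in Ly51+gp38- cells at P0 and 4 weeks, but rose in single pericytes (0.98 ± 0.10) and VSM (1.34 ± 0.25). The source of these differences was not tested.

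The newborn data held TEC and NETS in the same libraries, and the comparison there is a description over 6 libraries, with no test. *Il7* in TEC was 219, 312 and 314 CPM in WT and 247, 190.96 and 203 CPM in Tbx1+/- Crkl+/- libraries, against 18.6, 23.1 and 17.4 CPM and 23.0, 36.7 and 28.4 CPM in NETS, so that TEC were higher in 6 of 6 libraries, 10.1-fold in the mean. *Il15* was also higher in TEC in 6 of 6 libraries (42.2 ± 7.60 against 23.5 ± 4.32 CPM, SD, n = 6). *Csf1* (55.1 ± 5.76 against 96.9 ± 9.64 CPM) and *Il34* (19.9 ± 8.45 against 116 ± 19.0 CPM) were higher in NETS in 6 of 6 libraries. *Kitl* did not separate the compartments (84.6 ± 11.2 CPM in TEC and 85.4 ± 10.99 CPM in NETS, with TEC higher in 2 of 6 libraries), nor did *Flt3l* (9.47 ± 1.42 and 7.68 ± 1.95 CPM, TEC higher in 5 of 6). *Tslp* was higher in NETS in 5 of 6 libraries (5.79 ± 3.98 against 11.96 ± 1.55 CPM). The exception was the third WT library, with 13.4 CPM in TEC and 11.99 CPM in NETS.

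That *Tslp* value came from few cells. In the third WT library 22 cells labelled post-Aire mTEC (PAmTEC) held *Tslp* at 971 CPM, whereas the 11 and 13 cells of that label in the other WT libraries held 0. In the libraries labelled Tbx1+/- Crkl+/- the same label held 0, 2 and 0 UMIs in 9, 55 and 22 cells. Where each label was given equal weight, the mean of *Tslp* was higher in TEC (1.54 on the log2 scale), although TEC were higher in only 2 of 6 libraries and the mean was lower in TEC without the third WT library (-0.42). In the same weighting *Kitl* was lower in TEC in 6 of 6 libraries (-0.94 on the log2 scale), and the NETS level of *Il34* was 2.80-fold that of TEC, against 5.81-fold over all cells.

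The TEC labels differed from each other in WT newborns. *Il7* was 405 ± 48.5 CPM in mature cTEC (McTEC), 313 ± 26.2 in intertypical TEC (ItTEC), 289 ± 58.6 in perinatal cTEC (PcTEC), 254 ± 55.4 in proliferating TEC and 52.1 ± 17.4 in mature mTEC (MmTEC; SD, n = 3). *Kitl* followed a like order, with 99.9 ± 16.6 CPM in McTEC, 98.8 ± 8.58 in PcTEC and 27.0 ± 3.90 in MmTEC, although the highest levels of this factor were in EnA (575 ± 58.1 CPM) and EnC (351 ± 17.3 CPM). *Il15* was 66.4 ± 19.7 CPM in MmTEC, 51.4 ± 16.2 in ItTEC, 44.0 ± 9.80 in McTEC and 36.2 ± 0.278 in PcTEC, and the libraries of the first and the second overlapped. In Tbx1+/- Crkl+/- libraries it was 34.4 ± 23.8 CPM in MmTEC and 53.6 ± 10.7 CPM in McTEC, and highest in neural TEC (nTEC, 71.4 ± 30.9 CPM, from 18 UMIs). Among NETS labels venous and lymphatic endothelium (EnVL) led for *Il15*, at 46.1 ± 12.4 CPM in WT and 64.04 ± 12.01 CPM in Tbx1+/- Crkl+/- libraries, overlapping MedFb2b (41.4 ± 12.005 CPM) in WT. Among the NETS of these newborns *Csf1* was highest in CapFb4 (166 ± 34.04 CPM) and *Il34* in MedFb2a (243 ± 31.1 CPM) and Pc (223 ± 37.5 CPM) of WT, where CapFb4 overlapped CapFb2b and MedFb2a overlapped Pc. In Tbx1+/- Crkl+/- libraries CapFb1c was highest for *Csf1* (199 ± 26.2 CPM), Pc (237 ± 48.3 CPM) was above MedFb2a (193 ± 39.9 CPM) for *Il34*, and *Il7* was 301.7 ± 159.3 CPM in ItTEC and 285 ± 14.4 CPM in McTEC, again with overlap. *Flt3l* was 16.7 ± 4.63 CPM in McTEC and 16.6 ± 11.4 CPM in endothelium of WT, and 9.33 ± 2.43 and 10.3 ± 6.99 CPM in Tbx1+/- Crkl+/- libraries.

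RNA of TEC genes was found outside TEC in these libraries. The NETS level of *Il7* was 5.54% to 8.52% of the TEC level in WT and 9.34% to 19.2% in Tbx1+/- Crkl+/- libraries. Of 8 genes that mark TEC, 5 had a WT range that overlapped that of *Il7* and 3 (*Prss16*, *Foxn1* and *Ly75*) lay wholly below it, while all 8 overlapped it in the Tbx1+/- Crkl+/- libraries. Over the 8 genes the share was 2.10% to 8.79% in WT and 4.36% to 21.7% in Tbx1+/- Crkl+/- libraries, and for 6 of them, as for *Il7*, each of the latter libraries lay above each WT library. *Epcam* lay at 4.54% to 7.25% and 10.8% to 19.0%, respectively, *Psmb11* at 5.32% to 8.79% and 10.5% to 21.7%, *Krt8* at 4.85% to 7.53% and 9.12% to 17.8%, *Prss16* at 4.48% to 5.49% and 6.30% to 15.1%, *Foxn1* at 2.94% to 5.02% and 4.36% to 12.7%, and *Ly75* at 2.10% to 3.63% and 4.77% to 11.8%. The age series gated out EpCAM+ cells, and the authors removed contaminating clusters such as TEC. Its NETS level of *Il7* at P0 was 0.836 CPM in the mean, against 19.7 ± 2.99 CPM in newborn WT NETS. The newborn libraries were also fixed and shallower, with 2577 to 4686 UMIs in the median WT cell, against 10807 and 12099.5 in the age series at P0. The *Il7* level of NETS labels in the newborn data is given without a source.

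**Figure D4:**
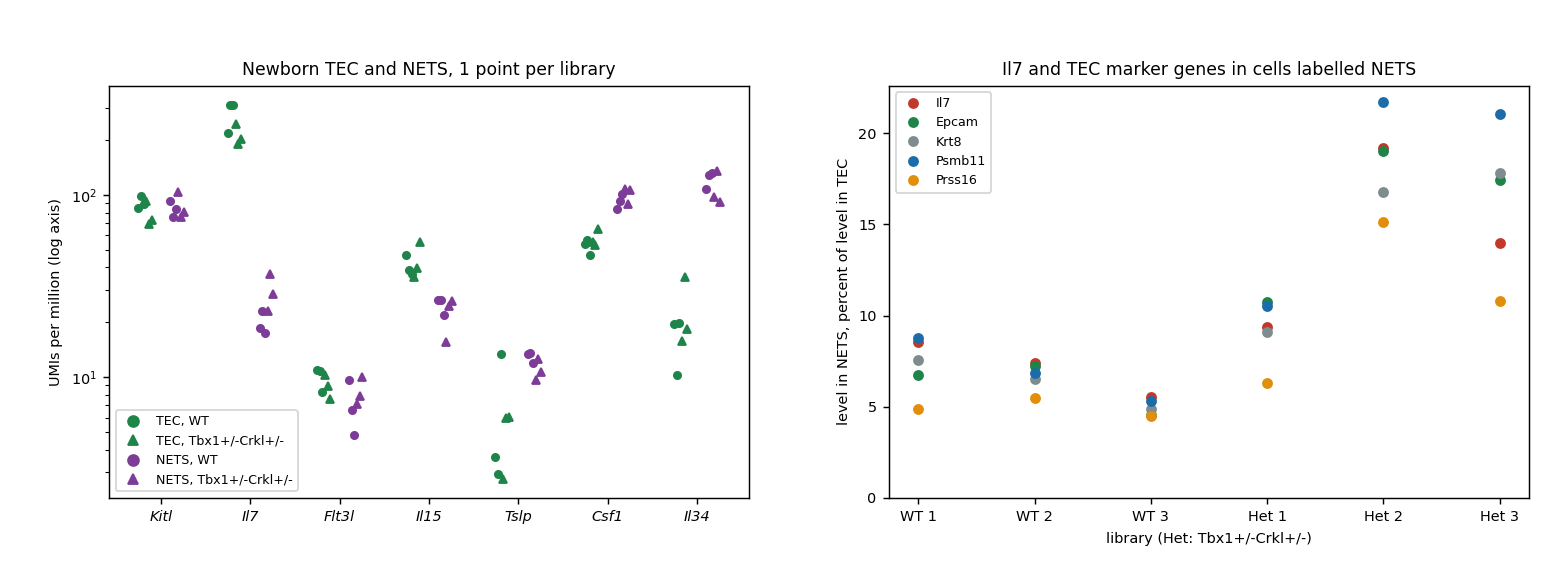
Newborn libraries. On the left, the level of each factor in TEC and in NETS of each library, in CPM on a log axis, circles for WT and triangles for Tbx1+/- Crkl+/-. On the right, the level in NETS as a percentage of that in TEC for *Il7* and the TEC genes *Epcam*, *Krt8*, *Psmb11* and *Prss16*, where each WT library lies under 8.8% and the Tbx1+/- Crkl+/- libraries between 6.30% and 21.7%.

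Whether the genotype label went with a change in the factors was tested within each class of cells. In edgeR 0 of 85 tests passed, and 0 with DESeq2, where 0.039% of all tests passed over the 20 classes. No share of all genes is given at an unadjusted p under 0.05, which was found in 5 of the 85. In 4 of them the gene was *Il7*: NETS (0.54 ± 0.21, adjusted p = 0.520), Pc (0.85 ± 0.28, adjusted p = 0.443) and Pr (1.35 ± 0.44, adjusted p = 0.338) were higher in Tbx1+/- Crkl+/- libraries, and proliferating TEC (PrTEC) lower (-0.63 ± 0.29, adjusted p = 0.362). The fifth was *Kitl* in CapFb1b (-0.68 ± 0.28, adjusted p = 0.693). The 3 higher values of *Il7* stand beside the higher NETS levels of TEC genes, as a percentage of the TEC level, given above for these libraries. The part of TEC RNA in those 3 values was not tested. The median cell held 2391 to 2551 UMIs in Tbx1+/- Crkl+/- and 2577 to 4686 UMIs in WT libraries. Without the first WT library, *Il7* in Pr passed (1.87, adjusted p = 0.0261).

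The receptors of the factors were read in the same sorted populations. Of 10 receptor genes, 4 were higher in TEC at P0 (24.9% of genes) and 3 lower (14.7%). The higher ones were *Kit* (2.11 ± 0.55, adjusted p = 0.00104), *Il15ra* (3.28 ± 0.27, adjusted p = 1.21e-17), *Csf1r* (4.19 ± 0.87, adjusted p = 4.57e-05) and *Ptprz1*, a further receptor of interleukin 34 (6.36 ± 1.01, adjusted p = 3.14e-07). *Sdc1* (-1.16 ± 0.21), *Il2rg* (-1.60 ± 0.33) and *Crlf2* (-1.20 ± 0.49) were lower. *Il7r*, *Flt3* and *Il2rb* were near 0 in NETS at P0 and had no usable error. At 4 weeks 9 were higher in TEC (29.8% of genes) and none lower, among them *Il2rg* (0.97 ± 0.29, adjusted p = 0.00403) and *Sdc1* (0.93 ± 0.19, adjusted p = 4.63e-05), which had been lower at P0. In cTEC *Il2rg* averaged 1.87 ± 1.21 CPM at P0 and 155.5 ± 58.02 CPM at 4 weeks (SD, n = 6), beside *Ptprc* at 1.76 and 153 CPM, and the part of leukocyte RNA in the receptor levels of this sort was not tested. The change of the TEC − NETS difference between ages passed for *Sdc1* (2.09 ± 0.29, adjusted p = 1.32e-07), *Il2rg* (2.57 ± 0.43, adjusted p = 1.64e-05), *Kit* (3.29 ± 1.03, adjusted p = 0.0371) and, in the other direction, *Il15ra* (-1.93 ± 0.39, adjusted p = 0.000387).

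The levels show which populations held these receptors. *Il15ra*, which presents interleukin 15, averaged 128 CPM in cTEC at P0 and 61.6 CPM at 4 weeks. *Kit* averaged 212 CPM in mTEC at P0 and 115.4 CPM at 4 weeks, and 56.3 and 84.6 CPM in CD31+ cells. *Il2rg* averaged 638 and 2200 CPM in CD31+ cells and 785 and 753 CPM in mTEC. *Flt3* (8.81 and 11.3 CPM), *Il7r* (8.21 and 9.44 CPM) and *Il2rb* (9.94 and 19.4 CPM) were low in mTEC, where the macrophage gene *Lyz2* averaged 138 and 332 CPM and *Ptprc* 7.44 and 5.43 CPM. Among the NETS cells of the age series 11 receptor tests rose and 16 fell from P0 to 4 weeks out of 48, against 35.3% of all tests called in either direction and 17% rises. The genotype label changed none of 71 receptor tests in edgeR, with 16 at an unadjusted p under 0.05. No share of all genes is given at that unadjusted threshold, so the 16 cannot be read as many or few.

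Other cytokines of the same families were counted in the same way. Of 10 tested in bulk, 0 differed between TEC and NETS at P0 in edgeR, with 0 at an unadjusted p under 0.05, where 39.7% of all genes passed. At 4 weeks 2 were higher in TEC, as were 29.8% of all genes, *Csf2* (3.70 on the log2 scale) and *Il13* (9.33). *Il5* averaged 25.7 CPM in mTEC at P0, 46.1 at 4 weeks and 52.2 in mTEChi, and *Il13* 21.9, 53.96 and 71.1 CPM. In mTEClo *Il13* averaged 2.56 CPM.

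The genes with the most similar course over the means of the 14 population-age groups are given by Pearson's r, as a description across groups that share libraries and scaling. For *Il7* these were *Trp63* (0.97), *Tmem102* (0.96) and *Slc46a2* (0.95), and for *Kitl* *Tecpr1* (0.92), *Stard6* (0.89) and *Ubtd1* (0.89). For *Il15* they were *H2-Q5* (0.95), *Med11* (0.94) and *Il20rb* (0.94), and for *Tslp* *Alpl* (0.85), *A4galt* (0.85) and *Hoxd3* (0.83). For *Csf1* they were *Pdp1*, *Tmem185a* and *Fam45a* (0.94 each), and for *Il34* *Arhgap6*, *Calhm2* and *Sema5a* (0.95 each).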

How the data were processed

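The authors deposited raw counts, which are UMIs per gene in each single cell and reads per Ensembl gene in each bulk library. The submitters' processing notes name Cell Ranger 3.1.0, STAR 2.5.3a and HTSeq, and the builds GRCh38 and mm10. The authors kept cells with over 1000 genes and under 5% mitochondrial UMIs and removed doublets and contaminating clusters, and their deposited label of each cell was used unchanged. The fewest genes per cell were 876 to 901 in the newborn libraries. Summary entries that name no gene took 7.81 to 29.4% of a bulk library and were not used. The members and lists were chosen with earlier results of these data known. The genes named are the members, their receptors, related cytokines, sort markers and the 3 genes with the highest r.

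UMIs were summed per class and library. A level needed 5 cells of a label in a library and a test 20. Tests were edgeR 4.0.16 quasi-likelihood fits in R 4.3.3 (TMM factors, filterByExpr with a minimum count of 10, Benjamini-Hochberg adjustment over all genes tested, threshold 0.05). The 83 bulk libraries entered 1 fit of 14 population-age groups, and 20417 genes were tested. Levels in bulk are TMM-scaled CPM and those of single cells CPM of the summed UMIs. Alternatives were RLE factors, library totals, no filter, DESeq2 1.42.0, the title prefix TXCK or DFCK (whose meaning is not stated) the library number position as a block, a replicate block in single cells, minima of 10 cells, and leaving out libraries. Fits were also run on simulated counts with known changes, and the outcome is not given here. Positions are from GENCODE M21. Intervals and depth limits cover counting error only.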

Additional observations from a re-analysis of the deposited data

Results flagged for a closer look

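Of 84 sets of bulk libraries, that is 6 factors in each of 14 population-age groups, 4 held 1 library far from the others. Chance gives about 1 in 20, or 4.2 sets. *Il7* in CD31+ cells at P0 was 11.6 CPM in the fourth library and 0 in the other 5. *Tslp* in gp38+CD26+ cells at P0 was 15.5 CPM in the fourth library and 1.80 to 5.96 CPM in the others. *Tslp* in Ly51+gp38- cells at 4 weeks was 21.9 CPM in the third library and 5.42 to 9.17 CPM in the others. *Tslp* in mTEClo at 4 weeks was 7.55 CPM in the fifth library and 0 to 0.387 CPM in the others.

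The step of *Kitl* from P0 to 4 weeks differed between gp38+CD26+ and gp38+CD26- cells (-1.99 ± 0.42, log2 ± SE, adjusted p = 0.00202) and between Ly51+gp38- and gp38+CD26+ cells (1.81 ± 0.42, adjusted p = 0.00425). These comparisons were added after the data were seen, and 2 of 90 such comparisons over the 6 factors passed, a share no higher than the 3.39% and 4.1% of all genes that passed in these 2 comparisons. Both rest on the same 5 gp38+CD26+ libraries of 4 weeks. Capsular fibroblasts of the age series, which are not the same set of cells, differed in sign from that sort. Their rise in *Kitl* was 0.31 between these ages.

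Cells labelled as thymocytes in the newborn data entered no comparison of TEC with NETS. Their *Il7* level was 11.2 to 100.4 CPM by library, from 96 UMIs in all, or 5.13% to 49.4% of the TEC level. RNA of TEC genes was found in these cells too. *Epcam* lay at 8.68% to 35.7% of its TEC level, *Krt8* at 16.3% to 46.2% and *Psmb11* at 0 to 71.4%. The part of TEC RNA in the *Il7* level of the thymocyte label was not tested. The second gp38+CD26+ library of 4 weeks, left out for its 25702 counts, held 18 counts of *Il7*, 30 of the cTEC gene *Psmb11*, 12 of *Kitl* and 1 of *Dpp4*. The *Psmb11* and *Dpp4* counts go against its label.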

How the results depend on the processing

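In bulk, the 6 TEC − NETS calls at P0 and the 5 at 4 weeks stayed within 4 to 6 under all alternatives. Of the differences between ages, 1 passed among TXCK libraries alone. The 4 steps from P0 to 4 weeks became 2 with library totals, 8 with DESeq2, 2 with the shallow library kept and 0 among DFCK libraries, and 2 to 4 with gp38+CD26+ libraries of 4 weeks left out in turn. The 18 neighbouring pairs became 8 among TXCK and 9 among DFCK libraries, and 15 to 18 with libraries left out. Library totals moved the share of higher calls over all genes from 65.5% to 52.2% in gp38+CD26+ and from 64.2% to 48.3% in gp38+CD26- cells, from 54.6% to 40.8% in Ly51+gp38- cells and from 63.2% to 42.2% in mTEC. In single cells, leaving out libraries gave 21 to 32 calls between P0 and 4 weeks, 40 to 42 between E12.5 with E13.5 and P0, 42 to 46 over all ages and 0 to 1 for the genotype label. DESeq2 gave 24 calls between P0 and 4 weeks. The leading subtype remained in 59.2% of cases when ranked by the share of cells with a UMI at 2000 UMIs per cell, and in 57.1% (without the first E16.5 library) to 100% with libraries left out. The newborn *Tslp* difference was reversed to 1.54 with labels counted equally, a reversal that rests on the third WT library: without it the value was -0.42, and without each other library 1.68 to 1.84 (1.68, 1.79, 1.84, 1.72 and 1.68). *Flt3l* so weighted was 0.0039, against 0.30 over all cells, and below 0 without the second (-0.16) or the third WT library (-0.080) or the second Tbx1+/- Crkl+/- library (-0.072). The equal weight with libraries left out was added after seeing the data. Unweighted, 4 to 5 of 7 factors went 1 way in all libraries left. Libraries with the same replicate number did not deviate together (correlations of -0.147 to 0.000718 in the age series and -0.459 to 0.168 in newborn NETS and TEC), so they share only a number. A replicate block gave 46 calls over ages, 29 between P0 and 4 weeks, 41 from E12.5 with E13.5 to P0 and 0 for genotype. It ended the calls of *Il15* over all NETS (0.54) and *Tslp* in pericytes (-0.66) after P0 and those of *Il7* in capsular (-0.97) and medullary fibroblasts (3.71) before it, and the pairing crossed after seeing the data gave 46, 31 and 41. Of 978 further values in single cells 894 kept their direction and side of the threshold, as did 239 of 264 in bulk. The 7 values counted as reversed were those of *Tslp* and *Flt3l* in newborn libraries with labels counted equally, and none were in bulk. *Flt3l* at -0.080 and -0.072 was not counted as reversed. In this weighting the libraries spread widely, with *Tslp* in TEC at 30.3 ± 55.4 CPM (SD, n = 6). The cause of these changes was not tested.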
